A study of Homo sapiens with 6 samples.

Results

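The PDGF and VEGF system was described here through 10 genes, which were the rows of the deposited gene table named PDGFA, PDGFB, PDGFC, PDGFD, PDGFRA, PDGFRB, VEGFA, VEGFB, VEGFC and PGF, of 33900 genes in all. The rule used names alone and no measured value. Both these genes and the gene lists described below were, however, chosen with earlier results of these data known. The samples were LX-2 cells, an immortal line of human hepatic stellate cells labelled as wild type and grown in DMEM with fetal bovine serum. In one group of 3 samples the cells received rhSema3C, the recombinant human form of the secreted semaphorin Sema3C, at 300 ng/ml for 48 h, and in the other group of 3 they received PBS for the same time. The study ran the sequencing to ask how Sema3C activates stellate cells. All 6 samples come from 1 cell line, and although the labels call the replicates biological, no source used here says how the cultures were kept apart, so the p-values measure the spread between these samples.

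Platelet-derived growth factors are dimers that bind the receptor tyrosine kinases PDGFRA and PDGFRB. PDGFA and PDGFB are secreted as active growth factors after cleavage in the cell, whereas PDGFC and PDGFD carry a CUB domain that proteases remove outside the cell. In the liver, PDGFRB is a receptor of activated stellate cells and PDGF is their best known mitogen. The VEGF family shares the cystine-knot fold of PDGF but acts mainly on endothelial cells. VEGFA binds FLT1 and KDR, VEGFB and PGF bind FLT1, and VEGFC binds FLT4 and KDR. NRP1 and NRP2 are co-receptors for VEGF ligands and for class 3 semaphorins, to which Sema3C belongs.

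Total counts on genes lay between 68267808 and 89245585 per sample, and intervals made from them cover counting error and the spread between samples only. The labelled cell type was checked against its markers. Of 10 markers of stellate cells and fibroblasts, VIM, COL1A1, COL3A1, COL5A1, ACTA2 and TIMP1 passed the filter on low values, and DES, LRAT and COL1A2 were below 0.15 FPKM in every sample. RELN, also under the filter, averaged 0.628 FPKM with PBS and 0.228 with rhSema3C. Summed FPKM of these 10 genes was 1390 to 1448 with PBS and 1102 to 1164 with rhSema3C. Most of it was VIM, at means of 1035 and 834 FPKM. Of the 6 markers that passed the filter, 5 were lower in the test described below, and COL5A1 did not pass. In that test 30.6% of all genes were lower. The log2 fold changes were -0.41 for VIM, -0.78 for COL1A1, -0.36 for COL3A1, -0.56 for ACTA2 and -0.43 for TIMP1. By qRT-PCR, the paper reports higher ACTA2 and COL1A1 mRNA in LX-2 cells given rhSema3C, so these samples went the other way for both genes. Of 8 endothelial markers 2 had no row in the table and PECAM1, CDH5 and CLDN5 were below 0.1 FPKM in every sample, but TIE1 was at 29.5 ± 1.60 FPKM with PBS and 23.9 ± 0.858 with rhSema3C (SD, n = 3 per group). VWF was at 0.0902 to 0.120 FPKM with PBS and 0.542 to 0.760 with rhSema3C. TEK was at 0.732 ± 0.0820 FPKM with PBS and 0.636 ± 0.0814 with rhSema3C. Only TIE1 and TEK passed the filter. TIE1 was lower (log2 fold change -0.41), and TEK, at -0.30, did not pass the test (edgeR BH-adjusted p = 0.15). The defining hepatocyte gene ALB was at 0 in 5 of 6 samples and the leukocyte gene PTPRC in 4 of 6. Summed FPKM of the markers with a row was 2.63 to 3.15 with PBS and 3.52 to 4.14 with rhSema3C for hepatocytes, 5.02 to 6.07 and 3.41 to 3.94 for macrophages, and 2.37 to 3.92 and 3.20 to 3.68 for epithelium. Most of each sum came from a single gene. These were SERPINA1 (means of 2.78 FPKM with PBS and 3.86 with rhSema3C), CD14 (4.69 and 2.88) and KRT7 (2.95 and 3.21), in that order. The part of these marker shifts in the results was not tested.

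The VEGF family ligands moved in opposite directions. VEGFA, the main growth factor of blood vessels, rose with rhSema3C to 2.68 times its PBS level, while VEGFB and VEGFC, which had the highest FPKM of the 10 genes in both groups, fell to 0.737 and 0.770 times theirs. PGF, placental growth factor, did not pass the test. On the PDGF side, PDGFA and PDGFC fell to 0.753 and 0.787 times the PBS level, and neither PDGFB nor PDGFRB passed. PDGFD and PDGFRA lay under the filter of a mean FPKM of 0.5 and were fitted with all genes instead. In bulk RNA, fewer cells that express a gene and less RNA per cell cannot be told apart.

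Differences were tested with edgeR's quasi-likelihood test on the deposited counts, scaled between samples with TMM factors, and p-values were adjusted with the Benjamini-Hochberg (BH) method over the 14178 genes tested. A standard error is written SE. Of the 8 members tested, 1 was higher and 4 were lower at an adjusted p of 0.05. In the same test 62.3% of all genes were called, 31.7% as higher and 30.6% as lower, so the share of members called, 62.5%, was close to that background. The median log2 fold change was -0.14 over the 8 members and 0.02 over all genes tested. A called change above 2-fold was reached by VEGFA alone among the 8, and by 5.37% of all genes tested, with 3.31% of all genes as rises. In the 5 members called, and in PDGFD, the groups did not overlap in CPM (counts scaled to a common library size with the TMM factors), which also held for 67.8% of all genes tested, with 34.6% higher and 33.3% lower.

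**Figure D1:**
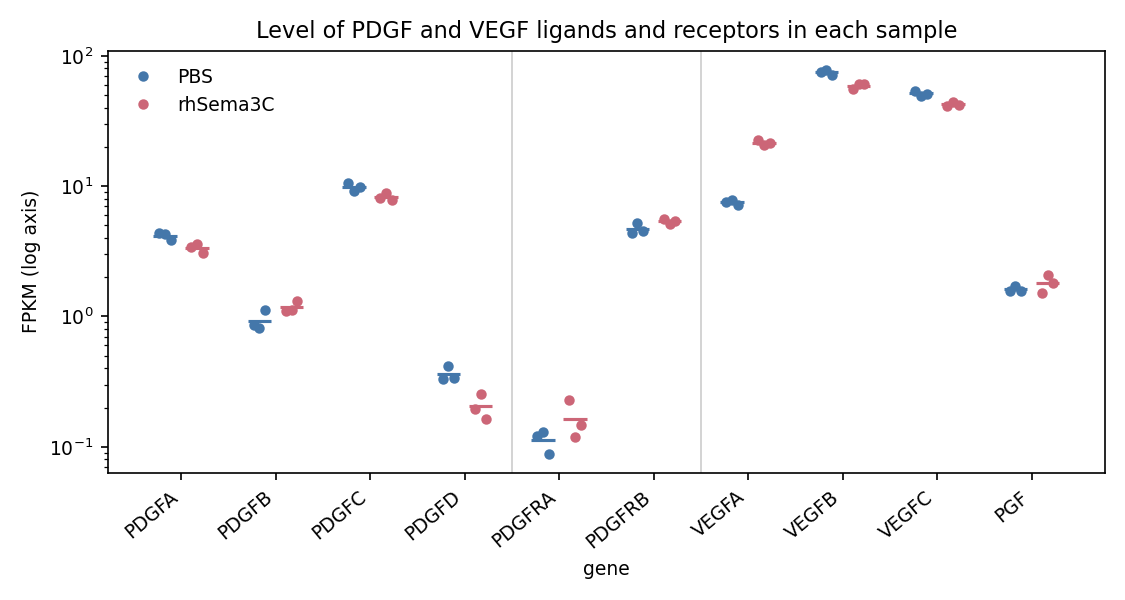
FPKM of each of the 10 genes (log axis) in each of the 3 PBS samples (blue) and the 3 rhSema3C samples (red), with a line at the group mean. VEGFB and VEGFC lie highest in both groups, and VEGFA moves from 7.51 to 21.6 FPKM on average, past PDGFC.

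VEGFA (ENSG00000112715) lies on the forward strand of chromosome 6 from 43770184 to 43786487 on GRCh38. Its level was 7.56, 7.85 and 7.12 FPKM in PBS replicates 1, 2 and 3, and 22.5, 20.8 and 21.5 FPKM in rhSema3C replicates 1, 2 and 3. Every treated sample was thus far above every control. Mean CPM went from 115.7 ± 6.24 to 309.5 ± 13.1 (SD over 3 samples each), which in log2 terms was a change of 1.42 (SE 0.05, edgeR BH-adjusted p = 4.3e-09). The 95% interval of the log2 fold change ran from 1.31 to 1.53. Among the genes tested, 166 had a larger rise than VEGFA, and 1.86% had a larger absolute change. The rise passed the test under each alternative run, with a log2 fold change between 1.38 and 1.46 when 1 sample was left out. The values are gene totals and do not separate the splice forms of VEGFA, which differ in heparin binding.

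VEGFB and VEGFC, the VEGF family ligands that fell, are shown with the sequence before their start sites. PDGFA, with a log2 fold change of -0.41, had 4 windows and is not shown. VEGFB activates FLT1 and is linked to fatty acid handling, and VEGFC is the main growth factor of lymphatic vessels. RefSeq windows were present for 7 of the 10 genes, and those of VEGFA, PDGFB and PDGFC were not among them. The stretches are from RefSeq on GRCh38.p14, read 5′ to 3′ on the strand of the gene, at chr11:64234334-64234537 (+) for VEGFB and chr4:176792923-176793172 (-) for VEGFC. Capitals mark GC boxes, the letters GGGCGG on either strand.
VEGFB: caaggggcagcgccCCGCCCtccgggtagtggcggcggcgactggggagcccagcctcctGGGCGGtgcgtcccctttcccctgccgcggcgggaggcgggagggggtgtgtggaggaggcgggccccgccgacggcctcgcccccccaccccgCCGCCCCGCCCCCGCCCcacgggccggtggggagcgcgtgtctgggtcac
VEGFC: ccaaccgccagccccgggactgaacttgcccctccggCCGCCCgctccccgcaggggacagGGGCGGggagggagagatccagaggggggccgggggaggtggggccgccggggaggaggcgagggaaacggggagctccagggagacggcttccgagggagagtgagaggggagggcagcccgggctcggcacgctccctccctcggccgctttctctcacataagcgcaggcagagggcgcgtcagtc
The 204 bases of VEGFB held 5 GC box matches, some overlapping, and the 250 bases of VEGFC held 2. Both stretches were rich in G and C, at 81.9% and 74.0%. A GC box on either strand was in 35.8% of all 35116 promoter windows at the first length and in 42.6% at the second. The hypoxia-response cores ACGTG and GCGTG, searched on both strands, matched 1 time in each stretch, and were in 36.5% and 43.2% of windows of these lengths. These are matches of letters and not measured sites.

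VEGFB (ENSG00000173511, chr11:64234538-64238793, forward strand) stood at 74.8, 77.9 and 70.9 FPKM in the PBS replicates and at 56.1, 60.6 and 60.4 FPKM after rhSema3C. The groups were separate, and the log2 fold change was -0.44 (SE 0.05, edgeR BH-adjusted p = 1.8e-05). VEGFC (ENSG00000150630, chr4:176683538-176792922, reverse strand) stood at 53.6, 49.6 and 51.0 FPKM with PBS and at 41.2, 44.0 and 42.2 FPKM with rhSema3C. It also had separate groups, with a log2 fold change of -0.38 (SE 0.04, edgeR BH-adjusted p = 2.1e-05). The ratio of VEGFB to VEGFC within a sample, which no scaling between samples can alter, was 1.45 ± 0.103 with PBS and 1.39 ± 0.0347 with rhSema3C (SD, n = 3 per group), with overlapping ranges.

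PGF (ENSG00000119630, chr14:74941834-74955626, reverse strand), a ligand of FLT1 first found in placenta, was much lower. Its level was 1.56, 1.72 and 1.56 FPKM with PBS and 1.52, 2.09 and 1.81 FPKM with rhSema3C. The treated samples lay on both sides of the controls, and the log2 fold change of 0.06 had a 95% interval from -0.22 to 0.34 (edgeR BH-adjusted p = 0.70). The remaining VEGF ligand, VEGFD, was listed at 0 FPKM in all PBS samples and at 0.0324, 0 and 0.0215 FPKM in the rhSema3C samples.

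The makeup of the VEGF family ligands therefore differed between the groups. VEGFA took 5.50%, 5.73% and 5.45% of the summed FPKM of VEGFA, VEGFB, VEGFC and PGF in the PBS replicates, and 18.6%, 16.3% and 17.1% after rhSema3C. The sum itself was 135.1 ± 3.88 FPKM with PBS and 124.9 ± 3.21 FPKM with rhSema3C (SD, n = 3 per group). This sum depends on the scaling between samples, so its fall is tied to FPKM. Rescaled to TPM, the means of VEGFA, VEGFB, VEGFC and PGF were 25.8, 255.7, 176.2 and 5.54 with PBS. With rhSema3C they were 80.7, 220.7, 158.8 and 6.76. VEGFA was at 0.101 ± 0.000330 times the FPKM of VEGFB with PBS, and at 0.401, 0.342 and 0.356 times in the samples given rhSema3C. Its ratio to VEGFC went from 0.146 ± 0.0104 to 0.509 ± 0.0376. Because both genes of a ratio come from the same library, the differences in these ratios and in the VEGFA share do not depend on the scaling between samples. In all of them the groups were separate. Gene length enters FPKM, so a share of FPKM is a share of transcripts only as far as the authors' lengths hold.

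**Figure D2:**
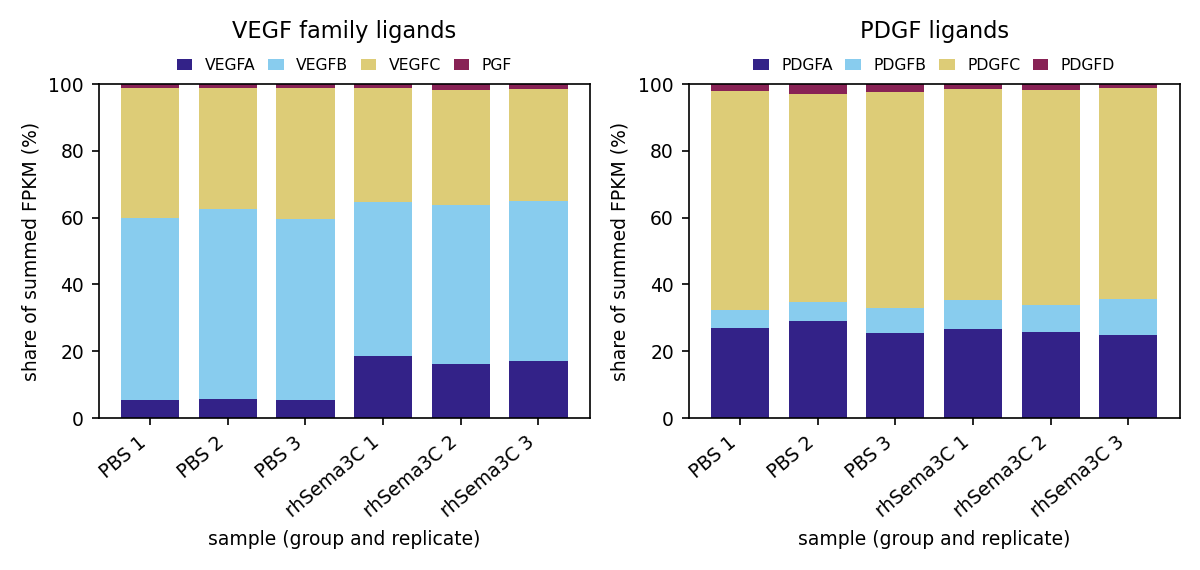
Share of each ligand (%) in the summed FPKM of the 4 VEGF family ligands (left) and the 4 PDGF ligands (right), with 1 bar per sample and colours for genes. VEGFA takes 5.45% to 5.73% of the VEGF sum in the PBS samples and 16.3% to 18.6% in the rhSema3C samples, while PDGFC is the largest part of the PDGF sum in all 6.

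Of the receptors for these ligands, LX-2 cells listed more FLT1 than KDR or FLT4. FLT1, which binds VEGFA, VEGFB and PGF, was at 8.51 FPKM on average with PBS and 8.07 with rhSema3C, and its log2 fold change of -0.18 passed the test but turned to 0.05 with values rescaled to TPM. KDR, the main signalling receptor for VEGFA in endothelium, was at 0.619, 0.653 and 0.895 FPKM with PBS and 0.660, 0.675 and 0.824 with rhSema3C. Its log2 fold change of -0.10 did not pass (edgeR BH-adjusted p = 0.63, 95% interval -0.49 to 0.28). FLT4, the receptor for VEGFC, fell from 2.18, 2.44 and 2.78 to 1.86, 1.80 and 1.60 FPKM, with no overlap and a log2 fold change of -0.59 (SE 0.10, edgeR BH-adjusted p = 4.4e-04).

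The co-receptor NRP1 was the 1 gene of this receptor list that rose, from 21.6, 21.6 and 22.7 to 34.2, 34.2 and 32.8 FPKM, a log2 fold change of 0.52 (standard error 0.04). Of the 7 genes in the list, 4 fell (FLT1, FLT4, NRP2 and PDGFRL), against 30.6% of all genes tested, and KDR and LRP1 did not pass. The 4 falls became 2 without PBS replicate 2, rhSema3C replicate 2 or rhSema3C replicate 3. With library size alone as the scaling, 2 were higher (NRP1 and LRP1) and FLT4 alone was lower. FLT1, NRP2 and PDGFRL lost the call under that scaling, and with TPM the sign of NRP2 turned to above 0. FLT4 was the 1 fall of the 4 that passed under all these scalings.

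The PDGF ligands were led by PDGFC (ENSG00000145431, chr4:156760454-156971799, reverse strand), which signals mainly through PDGFRA once its CUB domain is removed. Its level was 10.5, 9.14 and 9.80 FPKM in the PBS replicates and 8.15, 8.91 and 7.83 FPKM after rhSema3C. The groups came close but did not overlap, and the log2 fold change was -0.35 (SE 0.07, edgeR BH-adjusted p = 8.4e-04). The dimer of PDGFA (ENSG00000197461, chr7:497258-520208, reverse strand) with itself binds PDGFRA alone. PDGFA was at 4.34, 4.27 and 3.84 FPKM with PBS and 3.43, 3.58 and 3.07 FPKM with rhSema3C. All treated samples were below all controls, with a log2 fold change of -0.41 (SE 0.10, edgeR BH-adjusted p = 0.0030). The ratio of PDGFA to PDGFC was 0.424 ± 0.0389 with PBS and 0.405 ± 0.0143 with rhSema3C, again with overlapping ranges.

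PDGFB (ENSG00000100311, chr22:39223359-39244982, reverse strand), which binds both PDGF receptors and is the classic stellate cell mitogen, was low. Its counts were 312, 242 and 311 in the PBS replicates and 381, 404 and 437 after rhSema3C. In FPKM this was 0.857, 0.809 and 1.11 with PBS and 1.11, 1.11 and 1.33 with rhSema3C. PBS replicate 3 stood level with 2 of the treated samples in FPKM, and above them in CPM (4.73 against 4.42 and 4.42). The log2 fold change of 0.25 had a 95% interval from -0.12 to 0.62 (edgeR BH-adjusted p = 0.21). Relative to PDGFA in the same library PDGFB was higher in every treated sample, at 0.323, 0.311 and 0.431 times against 0.197, 0.189 and 0.290 times with PBS.

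PDGFD (ENSG00000170962, chr11:103907189-104164379, reverse strand), a ligand of PDGFRB activated by proteolysis, was near the low end of the 10 genes, with 128, 133 and 101 counts in the PBS replicates and 72, 99 and 58 after rhSema3C. Its level was 0.329, 0.414 and 0.337 FPKM with PBS and 0.194, 0.254 and 0.164 FPKM with rhSema3C. The groups did not overlap. With all 33900 genes in the fit, where 24.8% of genes were called and 12.3% were called lower, its log2 fold change was -0.93 (SE 0.26, edgeR BH-adjusted p = 0.027). That call did not hold in 4 of the 6 fits with a sample left out, where the adjusted p reached 0.096. Without PBS replicate 1, PBS replicate 2, rhSema3C replicate 1 and rhSema3C replicate 3 in turn, the log2 fold change was -0.99, -0.80, -0.88 and -0.76.

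Summed over the 4 PDGF ligands, the level was 15.3 ± 0.720 FPKM with PBS and 13.0 ± 0.747 FPKM with rhSema3C (SD, n = 3 per group). This sum too depends on the scaling between samples. PDGFC made up 64.3% ± 1.64 of this sum with PBS and 63.6% ± 0.635 with rhSema3C, PDGFA 27.2% ± 1.87 and 25.8% ± 0.905, and the ranges of both overlapped. The share of PDGFB was 5.34%, 5.53% and 7.38% in the PBS replicates and 8.61%, 8.03% and 10.7% after rhSema3C, without overlap. The order of the 4 ligands, PDGFC, PDGFA, PDGFB and PDGFD, was the same in both groups.

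Of the PDGF receptors, PDGFRB (ENSG00000113721, chr5:150113839-150155860, reverse strand) was by far the higher. It stood at 4.35, 5.21 and 4.52 FPKM with PBS and 5.61, 5.11 and 5.42 FPKM with rhSema3C. PBS replicate 2 lay above rhSema3C replicate 2 in FPKM, and above all treated samples in CPM (39.92 against 39.88, 36.26 and 38.36). The log2 fold change of 0.09 had a 95% interval from -0.08 to 0.27 (edgeR BH-adjusted p = 0.32). This value depends on the scaling, since with library size alone it was 0.20 (edgeR BH-adjusted p = 0.040) and with limma on TPM 0.31 (limma BH-adjusted p = 0.011). Against PDGFC in the same library PDGFRB was at 0.414, 0.570 and 0.461 times with PBS and 0.688, 0.574 and 0.693 times with rhSema3C, so the groups were separate by a small margin. Against PDGFA it was at 1.00, 1.22 and 1.18 times with PBS and 1.63, 1.43 and 1.76 times with rhSema3C.

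PDGFRA (ENSG00000134853, chr4:54229280-54281977, forward strand), the receptor that all PDGF ligands except PDGFD bind well, was lowest in both groups, with 106, 93 and 62 counts in the PBS replicates and 188, 104 and 116 after rhSema3C. Its FPKM was 0.120, 0.129 and 0.0885 with PBS and 0.227, 0.118 and 0.147 with rhSema3C. rhSema3C replicate 1 was highest and replicate 2 lay within the PBS range, and the log2 fold change with all genes in the fit, 0.41, had a 95% interval from -0.27 to 1.08 (edgeR BH-adjusted p = 0.38). Without rhSema3C replicate 1 it was 0.12. PDGFRB exceeded PDGFRA in FPKM in each of the 6 samples.

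**Figure D3:**
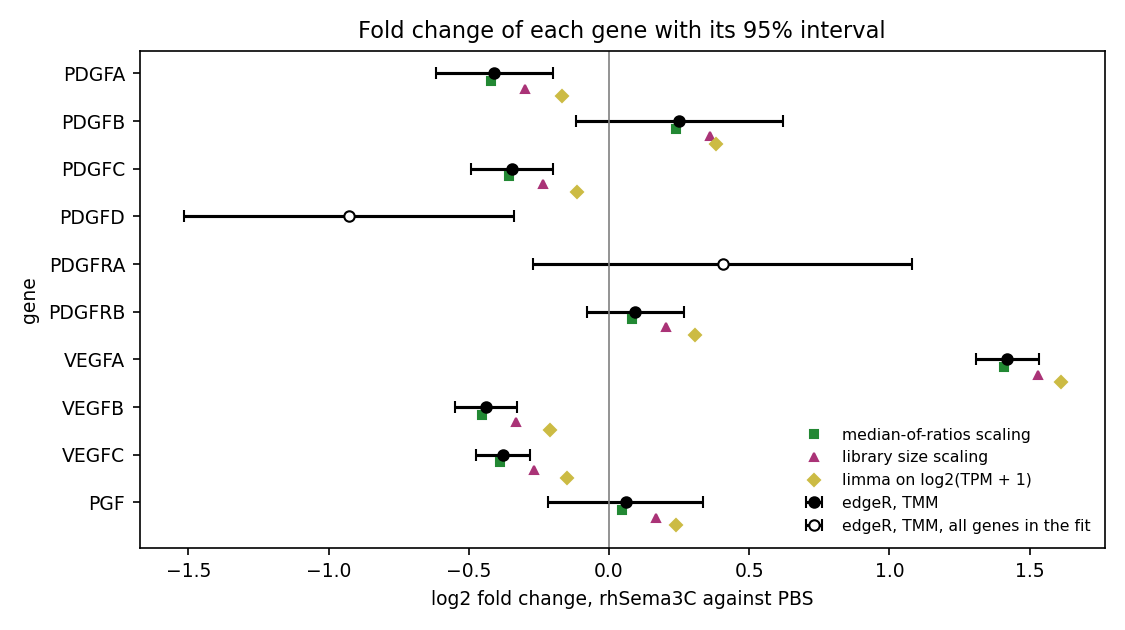
Log2 fold change of each of the 10 genes, rhSema3C against PBS, from edgeR with TMM factors (circles with 95% intervals, open where the fit held all genes), and, for the 8 genes tested, under 3 other scalings. VEGFA lies at 1.42 and above 1.4 in every scaling, and the intervals of PDGFB, PDGFRA, PDGFRB and PGF cross 0.

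Ranked by FPKM, the order with PBS was VEGFB, VEGFC, PDGFC, VEGFA, PDGFRB, PDGFA, PGF, PDGFB, PDGFD and PDGFRA. With rhSema3C the order was the same except that VEGFA stood above PDGFC. Neighbours in the order had separate ranges in all cases but 1, which was PDGFD and PDGFRA with rhSema3C. After rescaling to TPM the ranges of PDGFRB and PDGFA overlapped as well with PBS.

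The choice of scaling shifted the whole table. The median log2 fold change of all genes tested was 0.02 with TMM factors, 0.13 with library size alone and 0.23 with values rescaled to TPM. Less that median, VEGFA was at 1.40, 1.40 and 1.38 under these scalings. The same subtraction gave -0.46, -0.46 and -0.44 for VEGFB, and -0.40, -0.40 and -0.38 for VEGFC. For PDGFRB it gave 0.07, 0.07 and 0.08. Some genes of the lists went from below 0 with TMM factors to above 0 with TPM, but stayed below the median of 0.23 there. Among them were FLT1 (0.05), NRP2 (0.01), CCBE1 (0.04), PLAT (0.20), PTPN1 (0.09) and COL18A1 (0.04).

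The proteases that cut these ligands fell or did not pass. FURIN, a convertase that matures PDGF and VEGFC precursors, went from 38.3, 45.0 and 41.8 FPKM with PBS to 24.1, 21.3 and 23.5 FPKM with rhSema3C, a log2 fold change of -0.96 (standard error 0.07). PLAU, the urokinase that can activate PDGFD, went from 61.4, 63.7 and 62.4 to 27.6, 27.8 and 27.0 FPKM, a log2 fold change of -1.29 (standard error 0.04). Both had groups far apart. PLAT, the tissue plasminogen activator that cuts PDGFC, was at 37.6 ± 1.13 FPKM with PBS and 39.7 ± 1.31 with rhSema3C. Its log2 fold change of -0.02 did not pass (edgeR quasi-likelihood, BH-adjusted p = 0.67). With TPM it passed as higher at 0.20, which was below the median of 0.23 over all genes tested in that fit. Of 9 processing genes 5 were tested, and 4 of these were lower, against 30.6% of all genes, and none higher. PCSK7 fell by 0.73 on the log2 scale, but it overlaps TAGLN on the other strand, and PLAU overlaps C10orf55, so that without a known strand setting reads of each pair cannot be told apart. CCBE1, which helps to cleave VEGFC, fell by 0.19 on the log2 scale, a call lost with library size alone and a sign that turned with TPM. PCSK5, PCSK6, ST14 and ADAMTS3 were under the filter.

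Of 18 genes that act next to the activated receptors, 6 were higher, 5 lower and 7 did not pass, with a median log2 fold change of 0.10. Over all genes 31.7% were higher and 30.6% lower, so the list was called about as often as the rest. The largest rises were in the adaptor NCK1 (0.63), the kinase FYN (0.47) and the Ras GTPase-activating protein RASA1 (0.45). The largest falls were in the adaptor SHC1, which went from 87.0 ± 1.06 to 53.3 ± 1.88 FPKM (log2 fold change -0.81), the kinase SRC (-0.43) and the adaptor GRB2 (-0.31). GRB2 lost its call with TPM, and 11 of the 18 were higher with library size alone. PIK3R2, a regulatory subunit of PI3 kinase named here after its values were seen, was at 14.7, 12.6 and 11.6 FPKM with PBS but at 0.0646, 0.0647 and 10.7 FPKM with rhSema3C. Its counts in the treated samples were 33, 33 and 4575, so replicates 1 and 2 stood apart from replicate 3, and its log2 fold change of -1.95 did not pass (edgeR quasi-likelihood, BH-adjusted p = 0.16). It overlaps another gene, AC007192, on the same strand, and the part of that overlap in these values was not tested.

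Among 8 genes that end receptor signalling, 4 were higher and 2 lower, with a median of 0.23, where 31.7% and 30.6% of all genes were. The 2 lower became 1 with a replicate block and without PBS replicate 2, PBS replicate 3, rhSema3C replicate 2 or rhSema3C replicate 3. CBLB, a ubiquitin ligase that marks receptors for breakdown, rose most, from 1.90, 1.72 and 1.67 to 3.56, 3.47 and 3.59 FPKM (log2 fold change 0.90). The tyrosine phosphatases PTPN2, PTPN12 and ACP1 rose by 0.65, 0.60 and 0.40 on the log2 scale. The other ubiquitin ligase, CBL, had a log2 fold change of 0.07 and did not pass (edgeR BH-adjusted p = 0.30), though it passed as higher with library size alone. SH2B3 fell by 0.26 and PTPN1 by 0.14 on the log2 scale, and both lost the call with TPM, where the sign of PTPN1 turned. PTPN1 lost it with library size alone as well.

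**Figure D4:**
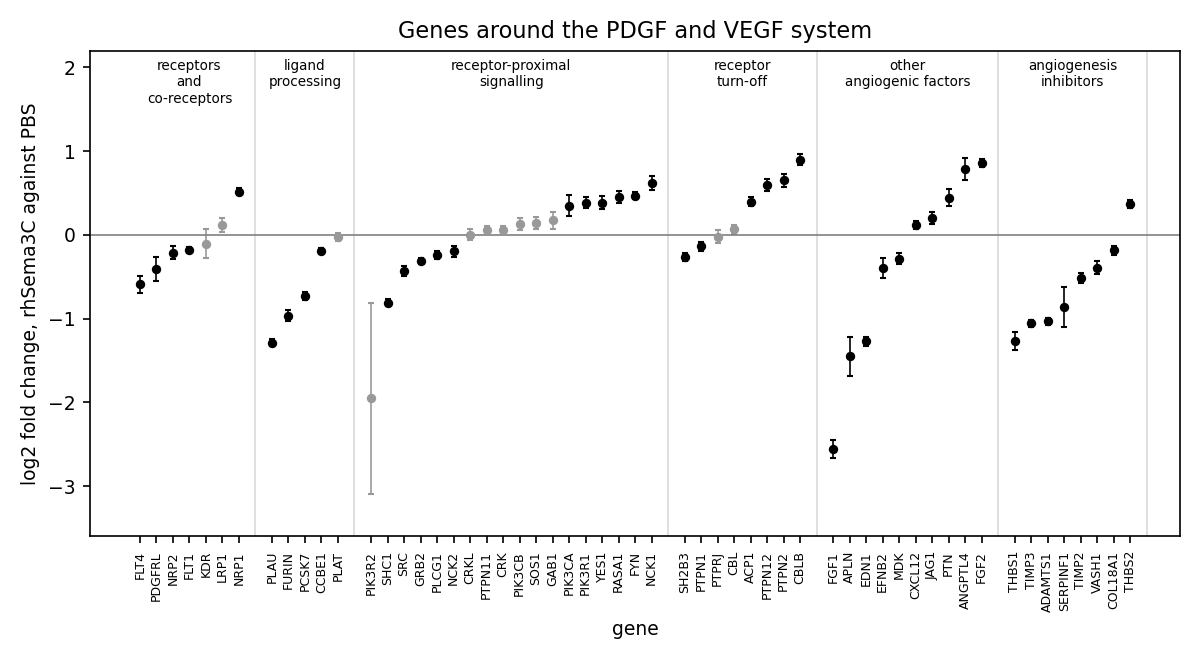
Log2 fold change with its standard error for each gene tested in 6 lists around the PDGF and VEGF system, rhSema3C against PBS, in black where the adjusted p was below 0.05 and grey otherwise. Processing enzymes lie at or below 0, angiogenesis inhibitors below 0 except THBS2 (CCBE1, PLAT and COL18A1 lie above 0 with TPM), and the other angiogenic factors range from -2.55 (FGF1) to 0.86 (FGF2).

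The other angiogenic factors did not follow VEGFA as a group. Of 13 listed genes 10 were tested, 5 of them higher and 5 lower, with a median log2 fold change of -0.08, against 31.7% and 30.6% of all genes tested. Only 3 were higher with a replicate block and without PBS replicate 1, PBS replicate 2, rhSema3C replicate 1 or rhSema3C replicate 3, and 3 were lower with TPM. FGF2, basic fibroblast growth factor, rose from 11.3, 10.9 and 11.3 to 20.7, 23.1 and 21.8 FPKM (log2 fold change 0.86), and ANGPTL4 and PTN rose by 0.79 and 0.45 on the log2 scale. The reads of FGF2 cannot be told apart from those of NUDT6, which runs antisense to it. The largest fall was in FGF1, acidic fibroblast growth factor, from 7.14, 6.72 and 7.74 to 1.52, 1.16 and 1.26 FPKM (log2 fold change -2.55). APLN, the ligand of the apelin receptor, had a log2 fold change of -1.45, and EDN1, the precursor of the vasoconstrictor endothelin-1, of -1.27. The angiopoietins ANGPT1 and ANGPT2 were below 0.05 FPKM in every sample.

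Of 8 inhibitors of angiogenesis, 7 were lower and 1 higher, with a median of -0.68, against the 30.6% of all genes called as lower. THBS1, thrombospondin-1, went from 9.87, 12.0 and 12.7 to 5.47, 4.38 and 5.59 FPKM (log2 fold change -1.27, standard error 0.10). TIMP3, which also blocks the binding of VEGFA to KDR, went from 36.2, 36.7 and 36.4 to 19.3, 18.8 and 18.4 FPKM (log2 fold change -1.05), and ADAMTS1 fell by 1.03 on the log2 scale. Each of these had treated samples well below all controls. THBS2, the paralog of THBS1, moved the other way and rose by 0.37 on the log2 scale. With TPM, 4 of the 8 were lower, and COL18A1 turned to above 0.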

How the data were processed

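RNA of LX-2 cells was sequenced by the authors on an Illumina NovaSeq instrument, and their methods name Cufflinks with cuffmerge. For each gene the authors deposited a raw count and an FPKM value, which is scaled to length and library size. Alignment, counting, strandedness and build are not given in the sources used here, but the coordinates lie on GRCh38. Other named genes also overlap a gene, as TIMP3 does SYN3, NCK1 does IL20RB, ACP1 does SH3YL1 and PDGFRL does MTUS1. The part of such overlaps in the values was not tested. Groups and replicate numbers came from the labels. All 12 columns of sample values were used.

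The 10 members and the gene lists were chosen with earlier results of these data known. Genes whose FPKM averaged 0.5 or more were tested with edgeR 4.0.16 in R 4.3.3 (quasi-likelihood test, TMM factors, Benjamini-Hochberg adjustment). A fold change is on the log2 scale unless stated. Alternatives used limma 3.58.1 on log2(FPKM + 1), log2(FPKM + 0.1) and log2(TPM + 1), DESeq2 1.42.0, other scalings, other filters, a replicate block, and fits that left out 1 sample each. Fits of PDGFD and PDGFRA with all genes, and ratios and shares within a sample, were added after the data were seen. TPM was FPKM rescaled to a common sum. All members may be named. Every gene of a list of 9 or fewer may be named too, and of longer lists the 3 largest rises and 3 largest falls that passed without overlap, to which ANGPT1, ANGPT2 and PIK3R2 were added after their values were seen.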

Additional observations from a re-analysis of the deposited data

How the results depend on the processing

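Over the 8 members tested, VEGFA, VEGFB and VEGFC kept their direction and their call under every alternative run. PDGFA and PDGFC kept theirs except with limma on log2(TPM + 1), where the log2 fold changes were -0.17 (limma BH-adjusted p = 0.082) and -0.11 (limma BH-adjusted p = 0.15). In that fit PDGFB, at 0.38, and PDGFRB, at 0.31, passed, so 3 members were higher and 2 lower. PDGFRB also passed with library size alone (0.20) and with genes whose FPKM averaged 5 or more (0.20), where 2 members were higher. The filter at 5 left out PDGFA, PDGFB and PGF, and the cause of these differences was not tested. With 1 sample left out, 1 member was higher, 4 were lower and 1 passed 2-fold in each fit, as in the full fit. PGF ranged from -0.06 to 0.16 in those fits and was below 0 without rhSema3C replicate 2 (-0.056). PDGFD ranged from -1.09 to -0.76 and lost its call without PBS replicate 1 (-0.99), PBS replicate 2 (-0.80), rhSema3C replicate 1 (-0.88) or rhSema3C replicate 3 (-0.76), and with limma on log2(FPKM + 0.1) over all genes it was -0.60 (limma BH-adjusted p = 0.11). The ratio of PDGFA to PDGFC differed by -0.12 to 0.01 on the log2 scale, and was above 0 only without PBS replicate 2 (0.0096). The labels give both groups the same replicate numbers. Same-numbered samples did not deviate together (correlations -0.092 to -0.037, and 4.6e-05 to 0.082 for the other pairs). With 3 samples per group, these values cannot settle whether same-numbered samples were handled together. With a replicate block 8341 genes were called in place of 8829, and no call on a member changed (VEGFA 1.42, PDGFD -0.94 with all genes). Depth limits PDGFRA and PDGFD most, which had 58 to 188 counts per sample.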

Other observations

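The genes whose pattern over the 6 samples was most like that of VEGFA, the member with the largest rise, were HILPDA, SCD and GARS1. Likeness was the root mean square difference of mean-centred log2 CPM, which was 0.0487, 0.0731 and 0.0743 for these genes, against a median of 0.717 over 12910 genes. HILPDA, a lipid droplet protein, went from 17.8 ± 0.670 to 49.4 ± 0.636 CPM (SD, n = 3 per group). SCD, the stearoyl-CoA desaturase, went from 854.3 ± 16.8 to 2167 ± 80.3 CPM, and GARS1, the glycyl-tRNA synthetase, from 111.2 ± 1.86 to 301.3 ± 10.0 CPM. With 2 groups of 3, such a pattern is set mostly by the size of the group difference.

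The nearest genes to VEGFB, the called member with the largest fall in the test of 14178 genes, were NUDT22, PKIG and STX10, at 0.0189, 0.0201 and 0.0215, against a median of 0.284. Their log2 fold changes were -0.41, -0.43 and -0.41. NUDT22 went from 83.6 ± 3.91 to 62.8 ± 1.76 CPM (SD, n = 3 per group).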
